A study of Caenorhabditis elegans with 2 samples.

Results

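The 9 genes described here act in the development of the Caenorhabditis elegans male tail, and the data give the peaks of chromatin immunoprecipitation against eGFP-tagged MAB-5 around each of them. They were listed by name for their role in the tail (lin-32, tlp-1, mab-3, dmd-3, pal-1, vab-7, mab-9, mab-21 and egl-27), and are 9 of 19973 nuclear protein-coding genes of the Ensembl WBcel235 annotation. A peak belongs to a gene here when its summit lies within the gene or within 20 kb of the gene's annotated start. Because all 9 genes fit inside the 20 kb, each window spans 40001 bp. The data hold no expression values, so the tail role of the genes was not checked.

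Whole animals of the second larval stage were used, from strain OP27, which carries the unc-119(ed3) mutation on chromosome III and the integrated array wgIs27, listed as an insertion that targets mab-5. The labels give the animals as mixed sex, without the share of males, and name mab-5 as the antibody. There is 1 group, of 2 biological replicates. No control sample and no second condition was analysed here, so the values below are descriptions and no p-value is given. In whole animals, a strong peak in few cells and a weak peak in many cells cannot be told apart.

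MAB-5 is a Hox protein of the Antennapedia class. In males it makes posterior lateral epidermal (seam) cells produce the precursors of sensory rays, the finger-like sense organs of the tail fan, which form in later larval stages than the one sampled. A proneural gene then turns ray precursors into neuroblasts, sex-specific DM-domain regulators give the tail its male form, and other regulators set the identity of single rays. Hox proteins often bind DNA together with a PBC-class homeodomain partner, at a composite sequence searched here as TGATNNAT on both strands.

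The peaks were concentrated at 2 of the 9 genes. Of 35 peaks of the deposited IDR (irreproducible discovery rate) list that lay in the windows, egl-27 had 15 and tlp-1 had 9. The other 7 genes had 0 to 3 each. The IDR procedure compares the ranking of peaks between replicates. Its list holds 2197 peaks, which are the 2197 strongest peaks of the list made from both replicates pooled. A single peak in it can therefore rank low in one of the replicates. At least 1 such peak lay in the windows of 8 of the 9 genes, where 51.1% of all protein-coding genes had one. Only tlp-1 had a summit in its promoter window (2000 bp before the start and 500 bp after it), and 1 gene in 9 is close to the 9.59% of all protein-coding genes. For 4 genes (tlp-1, mab-9, mab-21 and egl-27) some peak lay nearer to their own start than to any other protein-coding start, where 9.43% of all genes had such a peak. These 4 had 14 of the 35 peaks in this way, and the other 21 lay nearest to the start of another gene. The median distance from a gene's start to the next protein-coding gene upstream was 937 bp over all genes, and 7 of the 9 members exceeded it, up to 18574 bp at egl-27. The part of this larger space in the counts was not tested.

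**Figure D1:**
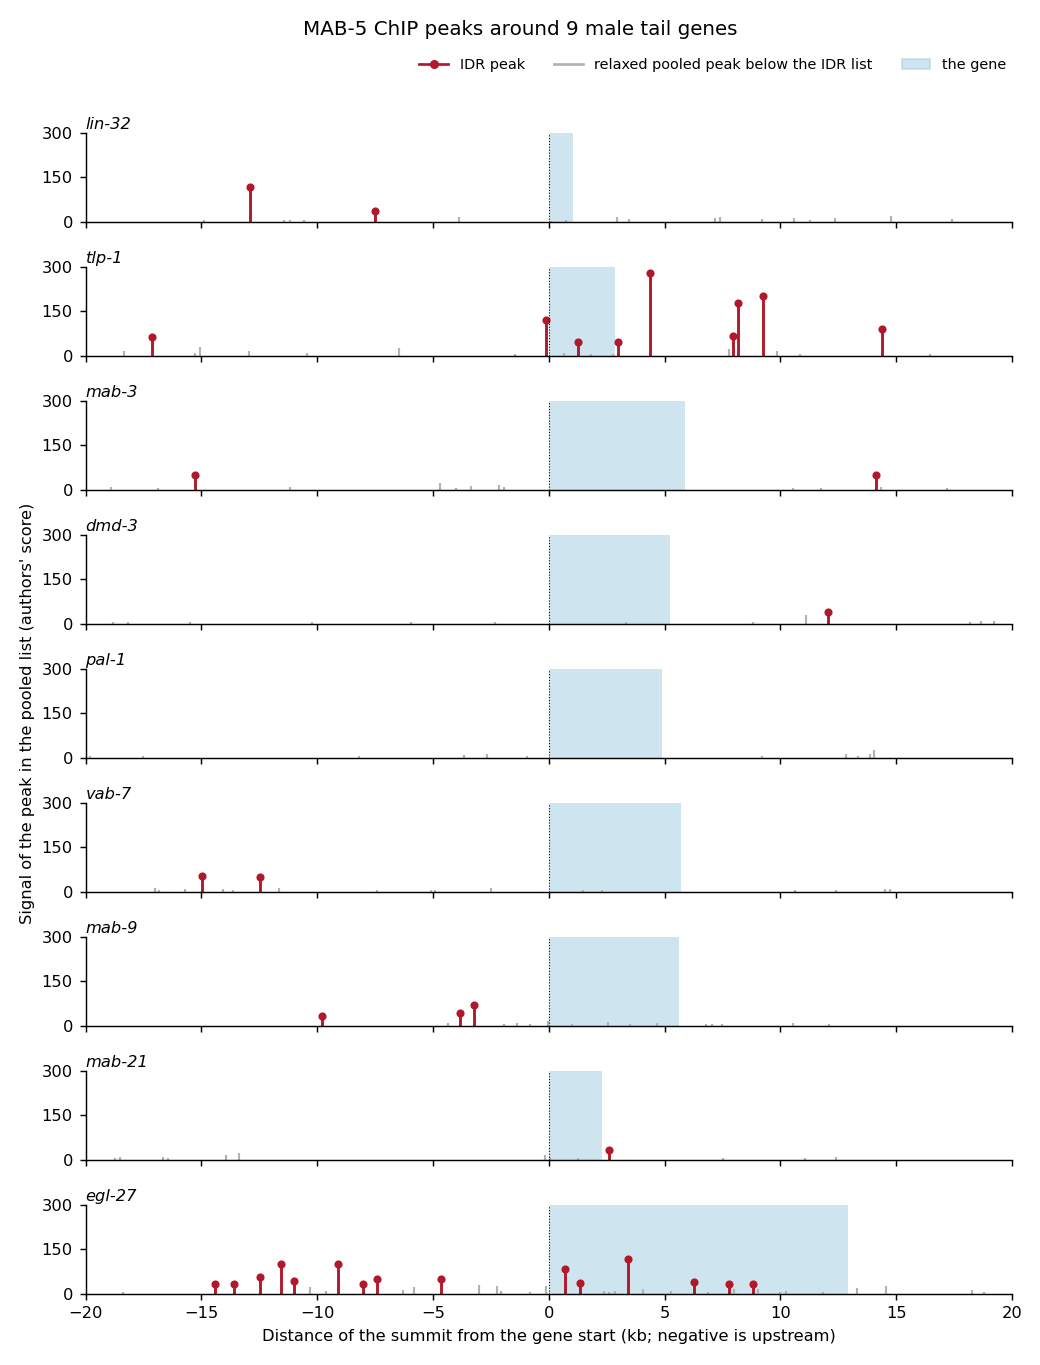
Peaks around each gene. The horizontal axis is the distance of the summit from the gene start in kb, in the direction of the gene, and the vertical axis is the authors' signal score in the pooled list; red lines with dots are IDR peaks, grey lines are relaxed pooled peaks below the IDR list and the blue band is the gene. Peaks crowd at tlp-1, up to a signal of 281, and at egl-27, up to 117, while pal-1 has no IDR peak.

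Counts per gene were close in both replicates when the 2197 strongest peaks of each were used alone. For egl-27 replicate 1 gave 15 and replicate 2 gave 13. For tlp-1 they gave 11 and 10. In the IDR list the egl-27 count was the highest of the 19973 genes, whose median was 1. The next highest count was 12, at mab-5 itself and its neighbour bath-15, whose windows largely overlap. The part of the array wgIs27, which targets mab-5, in that count was not tested. The egl-27 count was also the highest of any gene in replicate 1 alone and in replicate 2 alone. With the stronger 1098 IDR peaks its count fell to 7, and 13 genes had at least that many, because many of its peaks were weak. The tlp-1 count of 9 was reached by 15 genes in the IDR list, tlp-1 included, and all 9 of its peaks were among the stronger 1098. For the genes with few peaks the replicates differed more: lin-32 had 4 in replicate 1 and 1 in replicate 2, and mab-21 had 0 and 1.

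**Figure D2:**
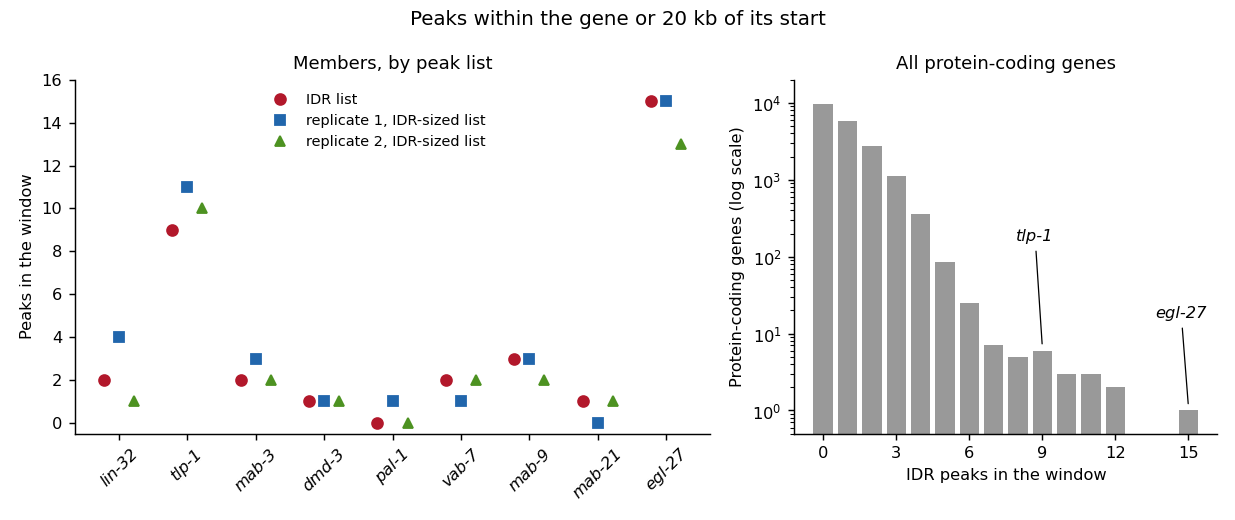
Number of peaks within each gene or 20 kb of its start. Left, the 9 genes with the IDR list (circles) and the 2197 strongest peaks of replicate 1 (squares) and replicate 2 (triangles); right, the number of protein-coding genes, on a log scale, with each count of IDR peaks. The egl-27 window, with 15, is alone at the upper end, and the tlp-1 window has 9.

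The gene tlp-1 encodes a zinc-finger protein needed for the asymmetric fates of the tail T cell lineage and for shaping the male tail tip. It lies on the minus strand of chromosome IV at 13701208 to 13704082 (WBGene00006580). Its 4 strongest peaks are shown as the 201 bases of the plus strand centred on the summit, because they include the strongest peaks found near any of the 9 genes. Capitals mark TGATNNAT or its reverse complement.
tlp-1 chrIV:13699611-13699811: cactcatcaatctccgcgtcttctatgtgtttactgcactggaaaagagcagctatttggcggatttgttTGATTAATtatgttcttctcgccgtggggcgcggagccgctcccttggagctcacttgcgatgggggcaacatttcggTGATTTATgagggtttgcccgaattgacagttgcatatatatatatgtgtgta
tlp-1 chrIV:13694714-13694914: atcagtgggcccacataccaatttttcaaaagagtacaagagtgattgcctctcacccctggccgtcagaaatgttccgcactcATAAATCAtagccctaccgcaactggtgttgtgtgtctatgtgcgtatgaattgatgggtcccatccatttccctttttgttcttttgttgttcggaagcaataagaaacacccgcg
tlp-1 chrIV:13695806-13696006: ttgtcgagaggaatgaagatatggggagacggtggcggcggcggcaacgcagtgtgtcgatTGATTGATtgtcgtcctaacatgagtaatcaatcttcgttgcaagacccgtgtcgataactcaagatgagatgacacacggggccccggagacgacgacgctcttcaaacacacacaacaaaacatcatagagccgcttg
tlp-1 chrIV:13704105-13704305: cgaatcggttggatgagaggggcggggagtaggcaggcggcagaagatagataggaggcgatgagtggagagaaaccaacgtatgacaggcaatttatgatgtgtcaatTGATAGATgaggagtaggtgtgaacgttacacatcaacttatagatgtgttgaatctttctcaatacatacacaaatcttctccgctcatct

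The first of these windows holds a pair of composites, TGATTAAT and TGATTTAT, on the plus strand. Each of the others holds 1. Among all 9 tlp-1 peaks, 6 had a composite within 100 bp of the summit.

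The strongest tlp-1 peak, at 13699534 to 13699887, lay between genes 4371 bp downstream of the tlp-1 start, past the end of the gene. Its signal was 281 in the pooled list, 110 in replicate 1 and 171 in replicate 2, scores that are comparable only within a list. It ranked 27 in both replicates' lists of 30000, which also count peaks outside the nuclear chromosomes. In the whole IDR list it ranked 28, and among the 2174 nuclear IDR peaks it ranked 8. Its nearest protein-coding start was that of T23G4.127, 1008 bp away, not that of tlp-1.

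The promoter peak of tlp-1, at 13704097 to 13704286, had its summit 123 bp upstream of the start. Its signal was 121, and it ranked 150 in replicate 1 and 111 in replicate 2. A weaker peak lay in a coding exon of tlp-1, 1243 bp downstream of the start (signal 47.9, ranks 675 and 1246). These were the only tlp-1 peaks nearer to its start than to that of another gene.

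Farther downstream, in T23G4.127 or past its end, strong peaks lay at 13694677 to 13694925 (signal 203, ranks 44 and 48) and at 13695750 to 13696166 (signal 178, ranks 62 and 51). A peak that shares its left edge with the latter, 13695750 to 13696362 (signal 66.9), overlaps it, and both were matched to the same peak of each replicate. By nearest summit it ranked 195 and 1274 instead. The remaining peaks had signals of 89.6 (14382 bp downstream, 144 bp from the start of T23G4.2), 63.9 (17113 bp upstream) and 47.3 (2993 bp downstream). All 9 tlp-1 peaks ranked within the first 2197 in both replicates, as did 24 of the 35 peaks of all members and 64.1% of the whole IDR list.

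The gene egl-27 encodes a protein related to the MTA subunits of chromatin-remodelling complexes, and it acts in T cell polarity and in patterning by Hox genes. It lies on the plus strand of chromosome II at 6835008 to 6847908 (WBGene00001194), with 24 annotated transcripts. Its 2 strongest peaks are printed in the same way, the first from inside the gene and the other from the space upstream of it.
egl-27 chrII:6838325-6838525: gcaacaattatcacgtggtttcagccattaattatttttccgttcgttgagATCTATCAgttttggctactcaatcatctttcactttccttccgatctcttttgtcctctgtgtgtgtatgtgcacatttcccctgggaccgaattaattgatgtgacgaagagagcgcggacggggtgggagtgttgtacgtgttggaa
egl-27 chrII:6823329-6823529: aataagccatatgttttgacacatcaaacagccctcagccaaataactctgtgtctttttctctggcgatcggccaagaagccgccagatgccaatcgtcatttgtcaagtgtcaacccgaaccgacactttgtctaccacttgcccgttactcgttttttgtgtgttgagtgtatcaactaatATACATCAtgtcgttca

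The intron peak holds 1 composite, and the upstream peak holds 1 near the edge of the window. Composites were present in 5 of the 15 egl-27 peaks.

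Of the 15 peaks, 9 lay upstream of egl-27, in the 18574 bp that separate it from the next protein-coding gene, and 6 lay in its introns. They spread over 23219 bp with a median spacing of 1082.5 bp between summits. The strongest, at 6838318 to 6838501, lay in an intron 3417 bp downstream of the start (signal 117, ranks 181 and 113). Next came the upstream peak at 6823341 to 6823549, 11579 bp away (signal 101, ranks 273 and 158). Another, at 6835537 to 6835880, lay 701 bp downstream of the start, just past the edge of the promoter window (signal 83.8, ranks 234 and 343). Each of these 3 was at rank 343 or stronger in both replicates.

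The 11 weakest egl-27 peaks had signals from 31.6 to 55.2, against a median of 44.1 over all nuclear IDR peaks. Some were strong in one replicate only. The farthest upstream ranked 687 in replicate 1 and 6931 in replicate 2, and the one 8825 bp downstream ranked 1361 and 4250. In all, 9 of the 15 ranked within the first 2197 in both. The nearest start was that of egl-27 for 10 peaks. For 3 it was that of snt-1, a synaptotagmin gene, at 9651 to 11563 bp, and for 2 that of tbc-6. In the relaxed pooled list the window held 40 peaks and the median over all genes was 11. That list includes the 15 IDR peaks, and some of the others overlap them, so it is not a separate observation. There 12 genes, egl-27 included, had at least 40 peaks, and the highest count was 53.

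**Figure D3:**
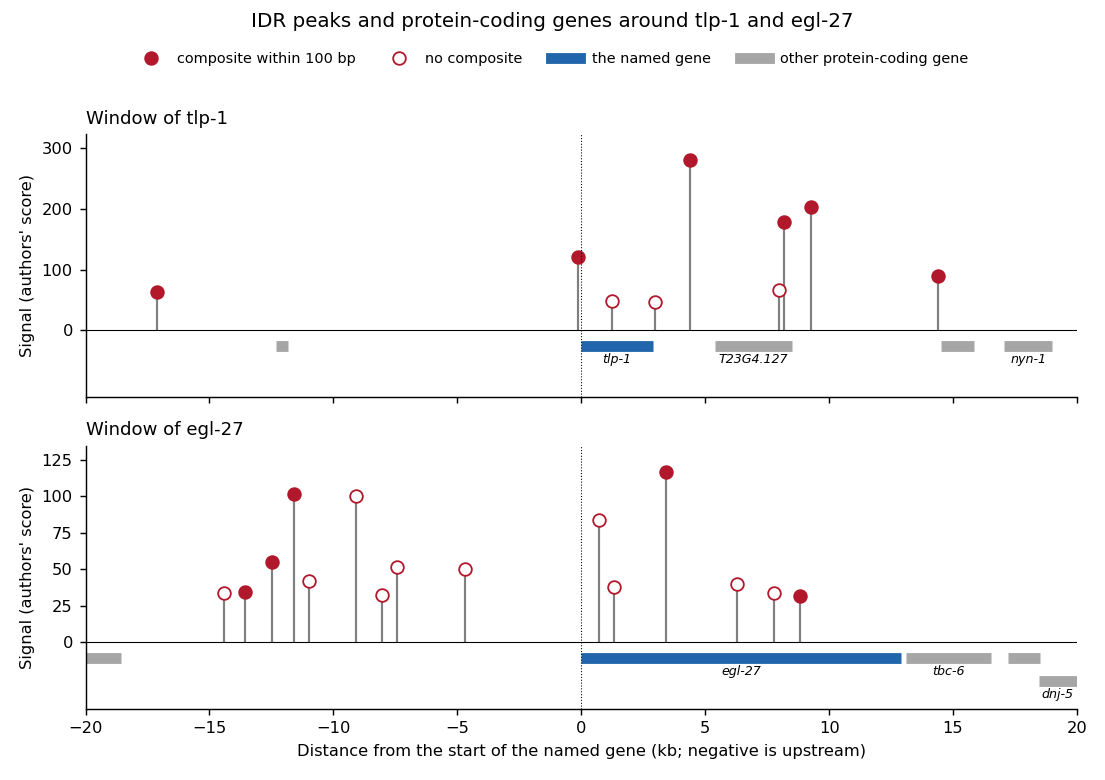
IDR peaks in the windows of tlp-1 and egl-27. The horizontal axis is the distance from the start of the named gene in kb and the vertical axis the authors' signal score; filled circles are peaks with a composite within 100 bp of the summit, open circles peaks without one, and bars below the axis are protein-coding genes, the upper row in the direction of the named gene. The 3 strongest tlp-1 peaks lie past the end of the gene and the next strongest lies at its start, and the egl-27 peaks lie upstream and in its introns.

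The gene mab-9 encodes a T-box protein that specifies hindgut cells, among them the cell that gives rise to the male copulatory structures. It lies on the plus strand of chromosome II at 516024 to 521635 (WBGene00003106). It had 3 IDR peaks, all of them upstream and between genes. The strongest is shown because it holds a pair of composites.
mab-9 chrII:512715-512915: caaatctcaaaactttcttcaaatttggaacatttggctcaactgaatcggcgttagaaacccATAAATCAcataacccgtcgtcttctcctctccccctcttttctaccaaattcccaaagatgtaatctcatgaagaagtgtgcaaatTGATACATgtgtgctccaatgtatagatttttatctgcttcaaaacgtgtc

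This peak, at 512723 to 512863, lay 3209 bp upstream of mab-9, its nearest start (signal 69.1). It ranked 1831 in replicate 1 and 267 in replicate 2, so its strength differed between the replicates. The adjacent peak at 512040 to 512383, 3812 bp upstream, had a signal of 43.4 (ranks 1793 and 903) and was nearer to the start of the chemoreceptor gene srh-105. The last, 9801 bp upstream, had a signal of 33.4 (ranks 1987 and 2546) and lay 209 bp from the start of another gene, WBGene00005324. Below the IDR list, a relaxed peak lay 31 bp upstream of the mab-9 start (signal 17.0, ranks 12945 and 3709).

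The gene mab-21 is needed for the identity of one of the rays. It lies on the plus strand of chromosome III at 4600753 to 4603052 (WBGene00003112), within the span of another gene, sel-2. It had 1 IDR peak, shown because no other IDR peak lay in the window and it holds a composite 6 bp from the summit.
mab-21 chrIII:4603264-4603464: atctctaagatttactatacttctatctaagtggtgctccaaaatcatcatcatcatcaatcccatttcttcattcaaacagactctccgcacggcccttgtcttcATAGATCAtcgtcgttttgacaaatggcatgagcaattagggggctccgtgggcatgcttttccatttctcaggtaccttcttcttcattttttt

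The peak, at 4603192 to 4603535, lay 2611 bp downstream of the mab-21 start, past the end of the gene and in an intron of sel-2. It was weak, with a signal of 34.2 and ranks of 3294 and 1892. A relaxed peak 172 bp upstream of the start had a signal of 16.3. It ranked 3904 in replicate 2 and had no match in replicate 1.

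The proneural gene lin-32 encodes an Atonal-family basic helix-loop-helix protein required to form ray neuroblasts. It lies on the minus strand of the X chromosome at 2229055 to 2230122 (WBGene00003018). Both of its IDR peaks lay upstream at the starts of other genes. The stronger, at 2242901 to 2243085 (signal 118.9, ranks 149 and 150), lay 12878 bp from lin-32 but 382 bp from the start of rpl-11.2, a ribosomal protein gene. The weaker, at 2237436 to 2237779 (signal 37.0, ranks 2083 and 2761), lay 303 bp from the start of vha-15, a vacuolar ATPase gene. Neither held a composite. The 1 relaxed peak in the lin-32 promoter window, 107 bp downstream of the start, had a signal of 5.08 and pooled rank 29934 of 30000, near the bottom of the list.

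The DM-domain genes mab-3 and dmd-3 encode related regulators that act in males, and both shape the male tail. The mab-3 gene lies on the plus strand of chromosome II at 9732137 to 9738035 (WBGene00003100). Its 2 IDR peaks lay 15286 bp upstream, 384 bp from the start of the kinase gene wee-1.3 (signal 50.01, ranks 396 and 1932), and 14117 bp downstream, 62 bp from the start of the Nanos-family gene nos-3 (signal 50.5, ranks 887 and 725). The latter held a composite. Closer to mab-3 there were only relaxed peaks, the strongest 4689 bp upstream (signal 23.6, ranks 1347 and 9300).

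The dmd-3 gene lies on the minus strand of chromosome V at 19650025 to 19655251 (WBGene00012832). Its single IDR peak, 12074 bp downstream of the start, lay in an intron of Y43F8C.7 (signal 41.8). It ranked 7060 in replicate 1 and 847 in replicate 2, the widest disagreement among the 35 peaks as a ratio of ranks apart from one egl-27 peak. A relaxed peak 11119 bp downstream had a signal of 29.4 and pooled rank 2220, just outside the 2197 of the IDR list.

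The homeobox genes pal-1 and vab-7 encode the Caudal and Even-skipped proteins of the worm. In the male, pal-1 is known to act upstream of mab-5 in a ray-producing seam lineage, and vab-7 patterns posterior muscle and epidermis. The pal-1 gene lies on the minus strand of chromosome III at 4804688 to 4809576 (WBGene00003912), and it was the only member with no IDR peak. Replicate 1 alone placed 1 peak of the window among its 2197 strongest, and replicate 2 placed 0. That was the match of the strongest relaxed peak, which, 14058 bp downstream of the start, had a signal of 25.2 and pooled rank 2811 (ranks 2055 and 5839). In the promoter window the relaxed list had an entry 946 bp upstream with a signal of 7.72 (ranks 24251 and 26762). Its pooled rank was 16996 and its deposited −log10 of the q-value was 0.24, so it may be background.

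The vab-7 gene lies on the plus strand of chromosome III at 10920344 to 10926041 (WBGene00006873). Both of its IDR peaks lay inside unc-119, the gene that is mutated in this strain. One was in an intron 14968 bp upstream of vab-7 (signal 52.1, ranks 1192 and 684), and the other in a coding exon 12483 bp upstream (signal 50.8, ranks 2244 and 816). Neither held a composite. The labels do not say whether the array wgIs27 also carries copies of unc-119. The part of the strain's altered unc-119, or of any such copies, in these peaks was not tested, and without them 7 of the 9 genes and 33 peaks remained.

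**Figure D4:**
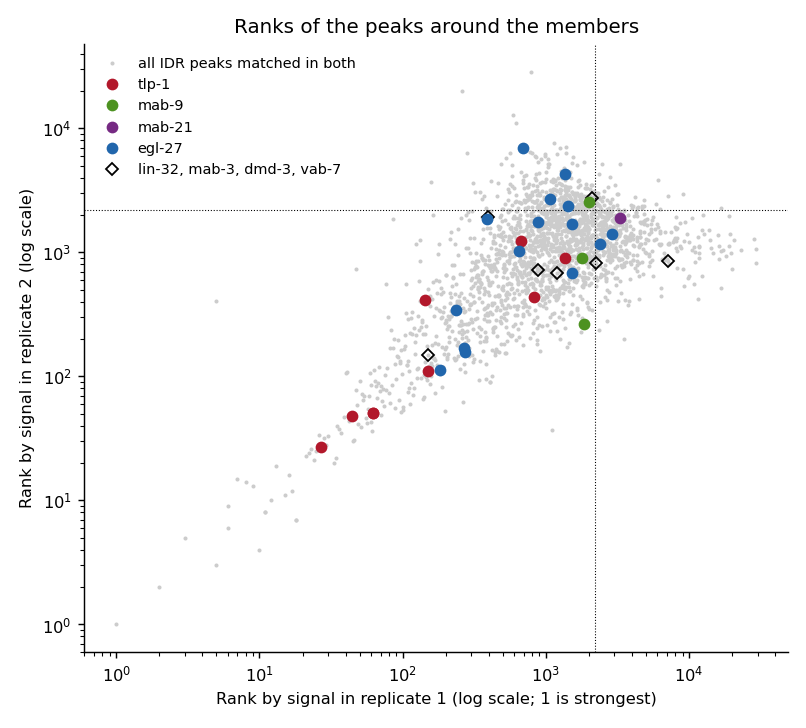
Rank by signal of each IDR peak in replicate 1 (horizontal, log scale) and replicate 2 (vertical, log scale), where 1 is the strongest and dotted lines mark rank 2197. Grey dots are all IDR peaks matched in both replicates, coloured dots the peaks of tlp-1, egl-27, mab-9 and mab-21, and diamonds those of lin-32, mab-3, dmd-3 and vab-7. The strongest tlp-1 peak ranks 27 in both, and weaker peaks scatter more between the replicates.

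Taking the 35 peaks of the 9 genes as 1 set, 22 lay between protein-coding genes (62.9%), 10 in introns (28.6%), 2 in coding exons and 1 in a noncoding exon. Over all nuclear IDR peaks the shares were 69.96% between genes and 24.8% in introns. The median signal was 50.5 against 44.1, and the median GC content within 100 bp of the summit was 43.3% in both sets, ranging from 29.9% to 53.7% in the 35. A composite was held by 15 of the 35, at 5 of the 9 genes, where 21.8% of all nuclear IDR peaks held one. Of these 15, tlp-1 had 6, egl-27 had 5, mab-9 had 2, and mab-21 and mab-3 had 1 each. Peaks of 1 window are neighbours and not independent, so these shares describe mainly tlp-1 and egl-27. The words TGATAGAT, TGATTAAT and TGATTTAT each occurred 4 times, and 7 others once each. A match is only a description of the sequence.

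The IDR list ends at a signal of 29.63, and the strongest pooled peak below it has 29.62. The windows of the 9 genes held 133 relaxed peaks below it, of which 59 had a match in both replicates. The same replicate peak could match several pooled peaks, IDR peaks among them, so the 59 are not all separate sites. The weakest IDR peak of a member had a signal of 31.6 (egl-27), and the strongest below the list had 29.4 (tlp-1, 15071 bp upstream, ranks 3666 and 1030). Below the list, 7 of the 9 members had an entry in the promoter window, where 47.9% of all protein-coding genes had one. The strongest of these was 99 bp upstream of egl-27 (signal 24.7, ranks 9512 and 4108). The relaxed lists are labelled as peaks and background. The highest deposited −log10 of the q-value in the promoter window was 0.027 at lin-32, 0.12 at tlp-1, 0.24 at pal-1 and 0.38 at mab-3. At mab-21 it was 1.91, at mab-9 2.06 and at egl-27 3.06. Many of these entries may thus be background.

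Other genes of male tail development were taken from 9 lists, in which 67 of 68 names matched 1 protein-coding gene each. An IDR peak lay in the window of 40 of the 67 and in the promoter window of 9, beside the 51.1% and 9.59% of all genes. The median was 1 peak per window. The Hox and cofactor list had the most: 4 of 8 had a promoter peak (mab-5, ceh-13, ceh-20 and lin-39), with a median of 4.5 peaks per window. Because the array wgIs27 targets mab-5, it may have a part in the mab-5 peaks, which was not tested. All 4 of the genes with a promoter peak lie on chromosome III, but so do egl-5, nob-1 and php-3 of the same list. The posterior Hox genes egl-5 and nob-1 had 0 peaks in the window and php-3 had 1. The cofactor gene unc-62, on chromosome V, had 6 and no promoter peak.

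Of 8 other DM-domain genes 4 had a peak in the window, as had 5 of 9 ray identity genes, 6 of 10 ray assembly genes and 6 of 8 tail tip genes. The DM-domain gene dmd-7 had a promoter peak 209 bp upstream of its start (signal 65.3, ranks 233 and 1173). Promoter peaks were also found at dbl-1, which encodes the BMP-like ligand that acts in ray identity (1078 bp upstream, signal 41.02, ranks 1628 and 1451), and at the plexin gene plx-1 (1560 bp upstream, signal 49.8, ranks 424 and 1244). In the tail tip list, lin-17, a Frizzled receptor gene, had 5 peaks in its window and a promoter peak. The other was lin-41, a heterochronic gene that times tail tip retraction (1482 bp upstream, signal 51.1, ranks 722 and 807).

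At 9.59% of all genes with a promoter peak and 51.1% with one in the window, lists of this size hold few or no promoter peaks, and nothing is read from their absence. There was none among the 7 sex determination genes (xol-1, her-1, tra-2, fem-1, fem-2, fem-3 and tra-1), though 6 of them had a peak in the window. The 4 genes of ray neuron fate also had none, including hlh-2, which encodes the partner of LIN-32, and 3 of them had 1 peak in the window. Of 7 seam lineage genes, only bro-1 had a peak in the window. Of the 6 genes of mature ray neurons 3 had one, with 4 at the kinesin gene klp-6, and 0 had a promoter peak.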

How the data were processed

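The deposited files analysed here are lists of peaks. A text record that accompanies the samples says that the relaxed lists (30000 peaks for each replicate and for the pool) derive from that sample's or both samples' alignments and 1 more input that it does not describe, and that the optimal IDR list of 2197 peaks derives from those 3 lists. For the aligner, the peak caller and the threshold of the IDR step the sources used here give nothing. The signal of a peak is a score deposited by the authors on a scale that is not stated, so it serves only to rank and describe peaks within a list. The deposited −log10 of the q-value was 3.66 for every IDR peak and was not used for ranking. The IDR peaks are the 2197 strongest pooled peaks, with the same values, so an IDR signal is 1 pooled value with no replicate error. The relaxed lists are labelled as peaks and background, so an entry in them need not be a bound site. The sequencing depth is unknown. The relaxed lists of the replicates shared 80 peaks of the same position and 0 of the same position and signal.

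All coordinates are ce11, 1-based, with gene models from Ensembl release 115 and sequence from NCBI's copy of WBcel235. The lists on ce10 were not used. Peaks were ranked by signal over each whole list, and a peak's match in another list was the peak of highest signal among those sharing 1 bp or more with it. The nearest gene and the background shares used the starts of 19973 nuclear protein-coding genes. Python 3.11.15, numpy 2.4.6, pandas 2.3.3 and matplotlib 3.10.9 were used, and the counting, matching and motif search were tested on simulated data. All 9 members are named, with every IDR peak given by value or range. Of the other lists, genes with a promoter peak are named. The members and lists were chosen with earlier results of these data known, so no test was made. Alternatives changed the window, the promoter, the peak list, the matching rule and the motif, and left out each replicate. The sequence and single values of 1 further peak are not reported here.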

Additional observations from a re-analysis of the deposited data

How the results depend on the processing

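No paired analysis was possible because the study has 1 group. Of 33 recomputed main counts, 22 stayed within 1.5 times their value. The rest depended mostly on distance. Genes with an IDR peak fell from 8 to 5 with a 10 kb window and to 4 with a 5 kb window, and peaks from 35 to 22 and 14. Restricted to peaks whose nearest start is the member, a choice made after seeing the data, they were 4 genes and 14 peaks. The stronger 1098 peaks left 22. Genes with a promoter peak rose from 1 to 3 with 5000 bp upstream, to 2 with the start of any transcript and to 4 with the nearest start. Genes with a composite fell from 5 to 3 with TGATTNAT. Leaving out replicate 1 or replicate 2 gave 8 genes each and 32 to 39 peaks, and 1 promoter gene each, but not the same 8: without replicate 2, pal-1 went from 0 peaks to 1 and mab-21 from 1 to 0. Of the counts for single genes, 43 of 63 stayed within 1.5 times. For these counts the cause was not tested beyond the settings themselves. The unknown depth limits what can be said of weak peaks, and a gene without an IDR peak is not shown to be unbound.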
